A study of Homo sapiens with 12 samples.

Results

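Ribosome biogenesis factors are the proteins that cut, modify, fold and package ribosomal RNA into the small (40S) and large (60S) subunits without remaining in the finished ribosome. With earlier results of these data known, 57 genes of this kind were chosen by their known place in the pathway. They were taken by name from the 15798 genes of the table. They comprised 3 core proteins of box C/D and 4 of box H/ACA small nucleolar RNA-protein particles (snoRNPs), 4 nucleolar proteins with several roles, 16 proteins of the small subunit processome, 6 factors of late 40S maturation and 24 factors of 60S assembly. The changes in their mRNA, their ribosome footprints and the ratio of both, the ribosome density, are described here.

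The study measured translation in HCT116, an established human colorectal carcinoma cell line, by Ribo-seq. Cells received 100 nM trametinib, an inhibitor of the kinases MEK1 and MEK2, or the solvent DMSO for 24 h, and all were given cycloheximide, which halts elongating ribosomes, for 5 min before lysis. Of each lysate, randomly fragmented RNA (input) and the mRNA fragments protected by single ribosomes after RNase I digestion (footprints) were sequenced, with 3 libraries in each of the 4 groups and 12 libraries in all. One cell line was used, and the p-values measure the spread between these libraries. The labels number the libraries without saying whether they came from separate cultures. A figure legend of the study takes mRNA and footprint fold changes from the mean of 3 biological replicates.

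Ribosome biogenesis begins in the nucleolus, where RNA polymerase I transcribes a long precursor of the 18S, 5.8S and 28S rRNAs. The box C/D and box H/ACA snoRNPs place 2′-O-methyl groups and pseudouridines on it, the small subunit processome folds and cleaves its 5′ part, and a separate series of GTPases, helicases and scaffold proteins builds the 60S particle. Proliferating cells express these factors at high levels, and the MEK-ERK pathway and the transcription factor MYC are known to regulate ribosome production.

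The input libraries held 2276693 to 2845568 counts on coding sequences and the footprint libraries 10127477 to 19181588, so the input values carry the larger counting error. The epithelial genes EPCAM, KRT8, KRT18 and CDH1 were detected at high levels in all 12 libraries and CDX2 at lower levels, whereas the intestinal gene VIL1 and the blood and endothelial genes PTPRC and PECAM1 were at or near 0. COL1A1, a fibroblast collagen, was listed at 36.3 to 90.6 normalized counts. DUSP6, SPRY4, ETV4, ETV5 and SPRED1, which follow ERK activity, were lower in every trametinib library than in every DMSO library of the same assay. Normalized counts and fold changes below rest on counts divided by median-of-ratios size factors over the 12 libraries. They are relative to the typical gene of these libraries and are not shares of the library total. Such shares, from raw counts, are given in the next paragraph. A general fall in mRNA or translation per cell cannot be seen in these values, and fewer cells and less RNA per cell cannot be told apart. By polysome profiling and puromycin incorporation, the study reported lower global protein synthesis in HCT116 with trametinib.

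Together the 57 factors took a smaller part of the sequenced pool after trametinib. They held 0.870%, 0.983% and 0.906% of the input counts in DMSO and 0.642%, 0.685% and 0.636% with trametinib. Of the footprint counts they held 1.193%, 1.196% and 1.369% in DMSO and 0.850%, 0.795% and 0.874% with trametinib. In both assays the 3 trametinib libraries lay below the 3 DMSO libraries, with a difference between the means of -0.266 percentage points in input and -0.413 in footprints. The share was higher in footprints than in input under both treatments. Abundant factors such as NCL and NPM1 weigh most in these sums. In the third DMSO footprint library NCL had 19499.8 and NPM1 13096 normalized counts, against DMSO footprint means of 16581 and 10176.

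**Figure D1:**
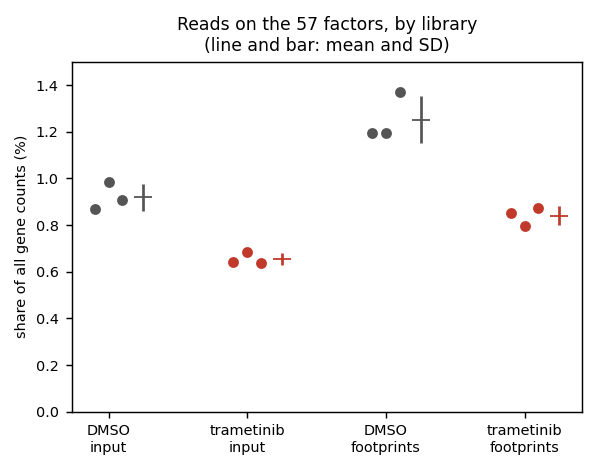
Share of all gene counts (%, vertical axis, from 0) that fell on the 57 biogenesis factors in each of the 12 libraries; points are libraries, the line and bar beside them the mean and SD of 3. The trametinib libraries lie at 0.636 to 0.685% in input and 0.795 to 0.874% in footprints, below all DMSO libraries of the same assay.

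Of the 57 factors, 55 had 10 or more counts in 3 or more of the input libraries and were tested. The other two were NOP2, a 28S rRNA methyltransferase, and PPAN, a 60S assembly factor. NOP2 had 21.7, 13.1 and 14.1 normalized counts in the DMSO input libraries and 9.69, 10.4 and 23.3 in the trametinib input libraries, and PPAN 6.51, 0 and 7.07 in DMSO and 0, 2.59 and 0 with trametinib. Reads were counted only where they fell on coding sequence of 1 gene symbol. In Gencode v44 94.5% of the PPAN coding sequence is also part of the readthrough gene PPAN-P2RY11, and 1.11% of that of NOP2 is part of a second coding gene. LTV1 shares 27.7% of its coding sequence with another gene, and no other factor shares any. The part of these overlaps in the low counts was not tested.

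In input RNA 36 of the 55 factors fell, 1 rose and 18 did not pass the test (edgeR quasi-likelihood test, Benjamini-Hochberg adjusted p under 0.05 over 10663 genes). Of all genes tested 16.9% fell and 15.4% rose. The median log2 fold change of the factors was -0.63 (range -1.51 to 0.66), against -0.0090 over all genes tested. In footprints 50 factors fell, none rose and 5 did not pass, against 25.6% of all genes lower and 23.8% higher. The median change was -0.82 (range -1.37 to -0.019), against -0.014 over all genes. The 5 factors without a call in footprints were NHP2, NOP10, DDX27, DDX51 and GNL3, and none of them was called in input either. None of the 55 was higher in footprints at an unadjusted p under 0.05 either, and DESeq2 and limma-trend called 48 and 49 factors lower and 0 higher.

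Ribosome density, tested as the interaction of assay and treatment, was called changed for few factors. The SE of this change had a median of 0.21 over the factors, and NOB1 at -0.76 had no call. Smaller changes can thus go uncalled. FBL and NOP53 fell, none rose and 53 did not pass, against 1.04% of all genes lower and 0.0656% higher. At an unadjusted p under 0.05, 6 factors were lower and 0 higher, against 476 lower and 372 higher of all 10663 genes tested. DESeq2 and limma-trend called 3 and 2 factors lower and 0 higher. The median log2 change in density was -0.12 against 0.00045 over all genes, and 32 of 55 estimates lay below 0. Scaling to library totals moved the median of all genes by 0.18, and the median of the factors then stood at 0.051. Leaving out single libraries gave medians from -0.15 to -0.049, with -0.069 without the third DMSO footprint library, -0.049 without the first trametinib input library, -0.065 without the second trametinib footprint library and -0.078 without the third. 36 factors were lower in both input and footprints with no call for density. A further 12 were called lower in footprints only, FBL in footprints and density, and NOP53 was higher in input and lower in footprints and density.

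**Figure D2:**
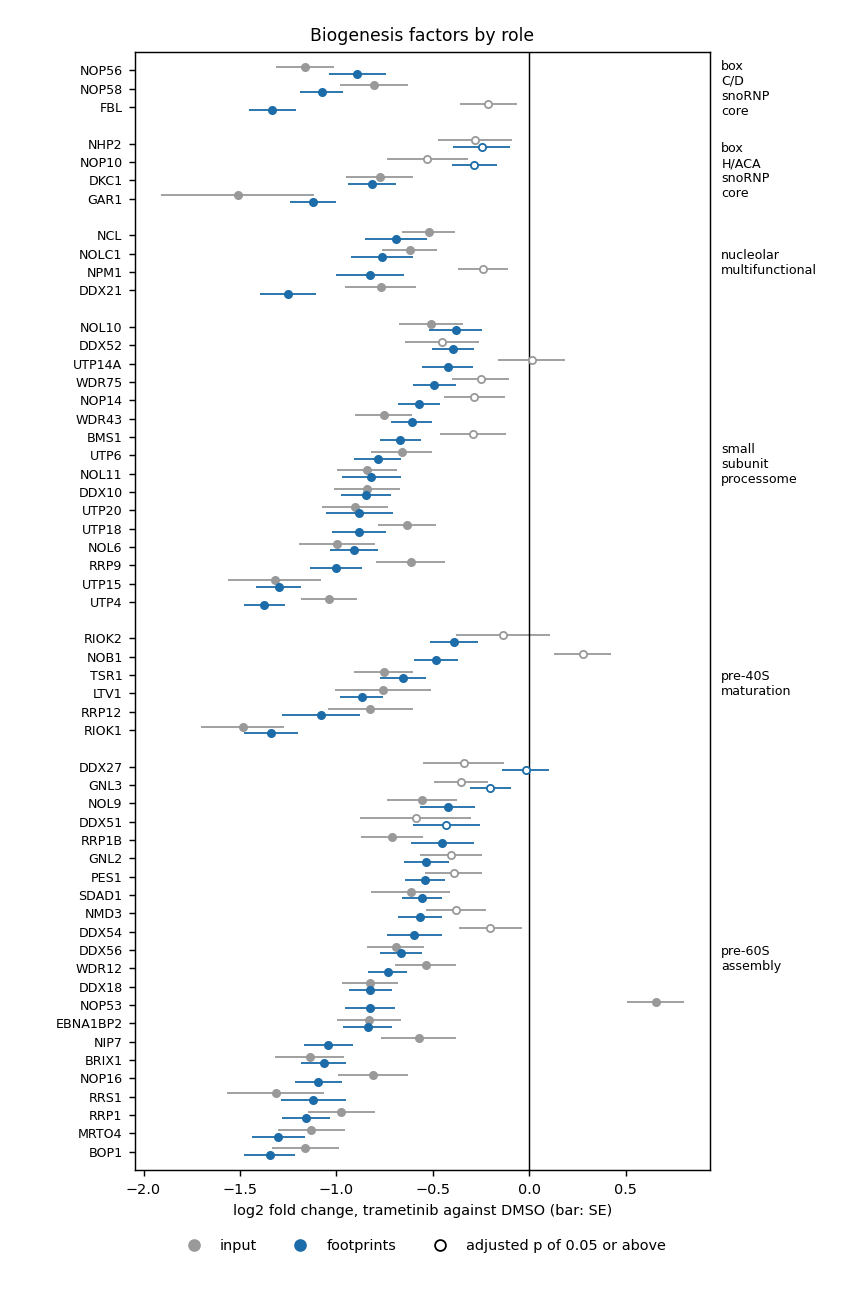
Log2 fold change (trametinib against DMSO) of the 55 tested factors in input (grey) and footprints (blue), grouped by role and ordered by footprint change; bars are SE and open symbols mark an adjusted p of 0.05 or above. Every footprint estimate lies below 0, from -1.37 (UTP4) to -0.019 (DDX27), and NOP53 is the single factor called higher in input.

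**Figure D3:**
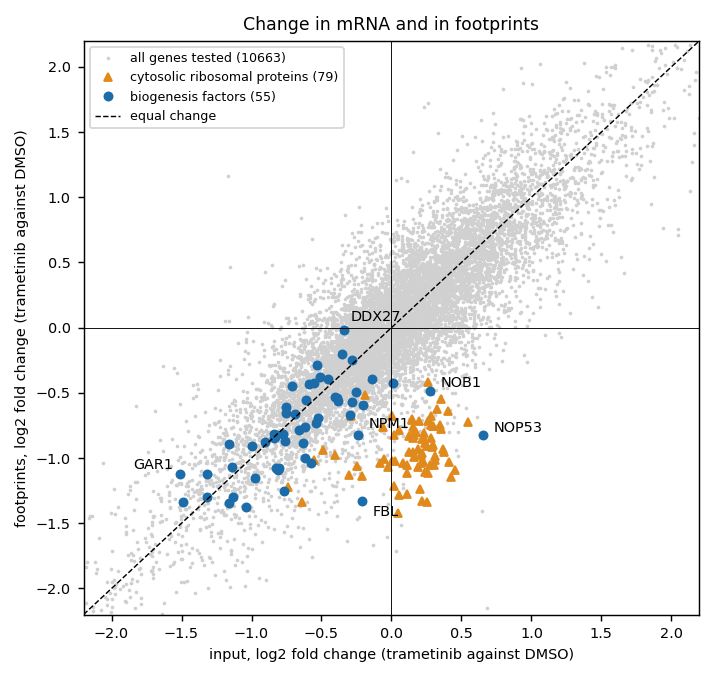
Change in footprints (vertical axis) against change in input (horizontal axis), both log2 fold change of trametinib against DMSO; grey points are genes tested, 492 of which lie beyond the axes, orange triangles 79 cytosolic ribosomal proteins and blue circles the 55 factors, with a dashed line of equal change. Most factors lie along the line in the lower left, whereas FBL, NOP53, NOB1 and NPM1 lie below it.

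The box C/D core differed among its 3 proteins in how input and footprints changed. These particles methylate ribosomal RNA, with FBL (fibrillarin) as the methyltransferase and NOP56 and NOP58 as its scaffold. NOP56 input was 1568, 1439.9 and 1372 normalized counts in DMSO and 613, 611 and 732 with trametinib, and its footprints 2135, 1577 and 1494 in DMSO and 977, 952 and 880.2 with trametinib. The groups did not overlap in either assay, and both changes passed the test (input -1.16 ± 0.15, SE, n = 3 per group, adjusted p = 4.67e-05; footprints -0.89 ± 0.15, adjusted p = 0.00103). NOP58 input was 760.0, 839.6 and 556 in DMSO and 395, 433 and 406 with trametinib, and its footprints 1659.9, 1434 and 1541 in DMSO and 729.6, 687 and 782 with trametinib. NOP58 also fell in both assays, with log2 fold changes of -0.81 ± 0.18 in input and -1.08 ± 0.11 in footprints. For FBL, input was 977, 1089.7 and 1195 in DMSO and 1003, 948 and 864 with trametinib, which overlapped, whereas its footprints were 1888, 2026 and 2377 in DMSO and 888, 798 and 810.3 with trametinib, which did not. FBL input did not pass the test (-0.21 ± 0.15, adjusted p = 0.297), whereas its footprints fell by 1.33 on the log2 scale (SE 0.12, adjusted p = 3.28e-05).

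The 4 proteins of the box H/ACA core, which pseudouridylates ribosomal RNA, split into a pair that fell and a pair without a call. DKC1 (dyskerin), the pseudouridine synthase, had 708, 657 and 493 normalized counts of input in DMSO and 380.4, 368 and 336 with trametinib, and 1717, 1324 and 1433 in DMSO and 859.8, 808 and 876 of footprints with trametinib. Trametinib lay below DMSO in both assays, and DKC1 fell in input (-0.78 ± 0.18, adjusted p = 0.00387) and in footprints (-0.82 ± 0.12, adjusted p = 6.21e-04). GAR1, a small glycine- and arginine-rich subunit, had input values of 73.8, 109 and 63.6 in DMSO and 29.1, 46.6 and 10.4 with trametinib, and footprints of 669, 597 and 663 in DMSO and 300.3, 261 and 324 with trametinib. Its input change of -1.51 ± 0.40 was the lowest estimate among the 55 factors, but it rested on as few as 4 counts in a trametinib input library, and without the second DMSO input library the adjusted p was 0.0634. Its footprints, with at least 632 counts per library, fell by 1.12 (SE 0.12, adjusted p = 7.90e-05).

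NHP2 input was 235, 231 and 330.0 in DMSO and 225, 218 and 209.6 with trametinib, and NHP2 footprints were 615, 527 and 694 in DMSO and 554, 567 and 429 with trametinib. Its footprint groups overlapped, and neither change passed the test (input -0.28 ± 0.19, adjusted p = 0.287; footprints -0.25 ± 0.15, adjusted p = 0.196). NOP10, the smallest of the 4 with a coding sequence of 192 bases, had input values of 384, 450.2 and 601 in DMSO and 356, 251 and 386 with trametinib and footprints of 1949.9, 1655 and 1638 in DMSO and 1498, 1485 and 1322 with trametinib. Its footprints did not overlap between the groups, yet the change of -0.28 ± 0.12 missed the threshold (adjusted p = 0.0694), as did the input change of -0.53 ± 0.21 (adjusted p = 0.068). Per kilobase of coding sequence in DMSO, the 4 subunits stood far apart, with 9102 footprint counts for NOP10, 1334 for NHP2, 988 for GAR1 and 967 for DKC1. In input the values per kilobase were 2492, 577, 126 and 402, so that GAR1 had the highest ribosome density of the 55 factors in DMSO, 7.84 footprint counts per input count, on few input counts.

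The nucleolar proteins NCL, NPM1, NOLC1 and DDX21 all fell in footprints, and NPM1 was the only one of them without a call in input. NPM1 (nucleophosmin), a histone and ribosome chaperone, and NCL (nucleolin) are among the most abundant nucleolar proteins. Per kilobase in DMSO NPM1 had the highest footprint level of the 57 factors, 11537 counts, and NCL, with 7785, came after NOP10. NPM1 input was 7299, 8616 and 7201 in DMSO and 6045, 6969 and 6589 with trametinib, and its footprints 8696, 8735 and 13096 in DMSO and 5581, 5401 and 6257 with trametinib. The groups did not overlap in either assay, and the third DMSO footprint library stood above the other two. NPM1 input changed by -0.24 ± 0.13 (adjusted p = 0.18) and its footprints by -0.82 ± 0.18 (adjusted p = 0.00402). NCL input was 5596, 7067 and 5603 in DMSO and 3978, 4593 and 4151 with trametinib, and its footprints 13885, 16359 and 19499.8 in DMSO and 9925, 9225 and 11688 with trametinib. NCL fell in both (input -0.52 ± 0.14, adjusted p = 0.0106; footprints -0.69 ± 0.16, adjusted p = 0.00642), although leaving out the second DMSO, the first trametinib or the third trametinib input library ended the input call, with an adjusted p of up to 0.0618.

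NOLC1, a chaperone of snoRNPs, had 1950.0, 1853 and 2029 normalized counts of input in DMSO and 1117, 1288 and 1389.8 with trametinib, and 2323, 1845 and 2008 in DMSO and 1508, 1096 and 1036 of footprints with trametinib. It fell in both assays without overlap, with log2 fold changes of -0.62 in input and -0.76 in footprints. DDX21, a helicase that acts on rRNA and snoRNAs, fell in input (-0.77) and footprints (-1.25), and its footprints were 4112, 2841 and 3288 in DMSO and 1425, 1389 and 1488 with trametinib. DDX21 lies outside the rule for named genes and was picked after its values were seen.

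All 16 proteins of the small subunit processome were called lower in footprints, and 11 of them in input, with medians of -0.80 and -0.65. Over all genes tested 25.6% were called lower in footprints and 16.9% in input. The footprint call of NOL10 was lost with DESeq2, with library totals and in 5 of the 6 fits without a library (all but that without the first DMSO library), and those of UTP14A and DDX52 with library totals and without the first or the second trametinib library. The input call of NOL10 was lost without the second DMSO library, and those of NOL10 and RRP9 without each trametinib library in turn. This particle assembles on the 5′ part of the precursor around the U3 snoRNA. UTP4, a subunit of the UTP-A complex that binds first, had the lowest footprint estimate of the 55 factors. Its input was 982, 1018 and 1023 in DMSO and 528, 471 and 471 with trametinib and its footprints were 1523, 1458 and 1481 in DMSO and 624, 549.7 and 549 with trametinib, with libraries of a group close together and no overlap between groups. UTP4 fell in input (-1.04 ± 0.15, adjusted p = 1.08e-04) and footprints (-1.37 ± 0.11, adjusted p = 1.02e-05). UTP15, another UTP-A subunit, had input values of 343, 287 and 184 in DMSO and 114, 117 and 95.8 with trametinib and footprints of 486, 426 and 495 in DMSO and 189.9, 178 and 204 with trametinib, and fell in input (-1.32 ± 0.24) and footprints (-1.30 ± 0.12). The other UTP-A subunits among the 55 factors had footprint changes of -0.82 for NOL11, -0.61 for WDR43 and -0.49 for WDR75. The WDR75 input change of -0.25 had no call. The 5 processome proteins without a call in input were WDR75, UTP14A, BMS1, NOP14 and DDX52, with estimates from -0.45 to 0.012.

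The 6 factors of late 40S maturation were called lower in footprints (median -0.76), and 4 of them in input. The shares of all genes tested were 25.6% in footprints and 16.9% in input. RIOK1, an atypical kinase that acts on cytoplasmic pre-40S particles, had input values of 439, 409 and 297 in DMSO and 114, 171 and 124 with trametinib, and footprints of 452, 373 and 489 in DMSO and 173, 154 and 194 with trametinib. The groups did not overlap, and RIOK1 fell in input (-1.49 ± 0.22, adjusted p = 1.46e-04) and footprints (-1.34 ± 0.14, adjusted p = 7.43e-05). RIOK2, the related kinase of an earlier step, changed by -0.14 ± 0.25 in input with no call and by -0.39 ± 0.12 in footprints (adjusted p = 0.0268). This footprint call was lost with DESeq2, with library totals and without the third DMSO, the first trametinib or the second trametinib library, with an adjusted p of up to 0.161. RRP12, TSR1 and LTV1 fell in both assays, with footprint changes between -1.08 and -0.65. The input call of LTV1 was lost without the second DMSO library and without each trametinib library in turn (adjusted p of up to 0.164, estimates from -0.97 to -0.49), and that of RRP12 without the second trametinib library (adjusted p = 0.0579), where estimates without single libraries ran from -0.97 to -0.49. NOB1, the endonuclease that forms the 3′ end of 18S rRNA, went another way and is described with the density values.

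Of the 22 tested factors of 60S assembly, 19 were called lower in footprints and 14 in input, with medians of -0.70 and -0.60. Among all genes tested 25.6% were called lower in footprints and 16.9% in input. The footprint calls of NOL9 and RRP1B were each lost in 5 of the 6 fits without a library (all but that without the first DMSO library) and with library totals, and that of RRP1B also with limma-trend. The input calls of NOL9, NIP7 and SDAD1 were lost without each trametinib library in turn, that of NOL9 also without the second DMSO library, that of NIP7 without the third DMSO library, and that of SDAD1 without the first or the second DMSO library and with limma-trend. PES1, BOP1 and WDR12 form the PeBoW complex, which is required for processing of the 28S and 5.8S precursor. BOP1 input was 2046, 2138 and 3123 in DMSO and 1109.7, 1016 and 1141 with trametinib, and its footprints 1446, 1749 and 1758 in DMSO and 727, 648 and 573 with trametinib. BOP1 fell without overlap in input (-1.16 ± 0.17, adjusted p = 1.67e-04) and footprints (-1.35 ± 0.13, adjusted p = 5.20e-05). PES1 footprints were 998, 1073 and 1141 in DMSO and 733, 756 and 716 with trametinib, a change of -0.54 ± 0.10 (adjusted p = 0.00223), whereas its input of 925, 827 and 976 against 666, 679 and 735 missed the threshold (-0.39 ± 0.15, adjusted p = 0.0563). WDR12 footprints were 1248, 1269.6 and 1305 in DMSO and 777, 717 and 804 with trametinib, a fall of 0.73 (SE 0.10, adjusted p = 3.78e-04). Its input was 845, 872 and 698 in DMSO and 584, 580.3 and 499.5 with trametinib (-0.54 ± 0.16, adjusted p = 0.0181). This input call was lost without the second DMSO input library and without each of the 3 trametinib input libraries in turn, with an adjusted p of up to 0.0953.

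MRTO4, which takes part in building the ribosomal stalk, had input values of 369, 437 and 436 in DMSO and 189, 176 and 202 with trametinib, and footprints of 661, 814 and 902 in DMSO and 336, 300.3 and 329 with trametinib. It fell in both without overlap (input -1.13 ± 0.17; footprints -1.30 ± 0.14, adjusted p = 7.23e-05). RRS1, a factor that helps to place the 5S rRNA particle, had input values of 97.7, 113 and 118 in DMSO and 50.9, 41.5 and 38.8 with trametinib and footprints of 287, 214 and 285 in DMSO and 139, 100.1 and 123 with trametinib. Its groups lay apart in both assays, and it fell by 1.32 in input (SE 0.25, adjusted p = 0.00128) and changed by -1.12 in footprints. At the other end stood the helicase DDX27, with 663, 513 and 577 normalized footprint counts in DMSO and 566, 571 and 595 with trametinib (-0.019 ± 0.12, adjusted p = 0.912). GNL3 (nucleostemin), a nucleolar GTPase, changed by -0.35 ± 0.14 in input and -0.20 ± 0.11 in footprints, neither with a call. DDX27 and GNL3 were picked after their values were seen.

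NOP53 was the only factor called higher in input RNA and lower in footprints. It binds nascent 60S particles and takes part in trimming of the 5.8S precursor. Its input was 1868, 1407 and 1714 in DMSO and 2491, 2816 and 2549 with trametinib, all 3 trametinib values above DMSO, and its footprints were 548, 421 and 455 in DMSO and 267, 289 and 248 with trametinib, all below. NOP53 rose in input (0.66 ± 0.15, adjusted p = 0.00358) and fell in footprints (-0.83 ± 0.13, adjusted p = 7.55e-04). Its density, taken as footprint over input counts of libraries with the same treatment and number, was 0.293, 0.299 and 0.266 in DMSO and 0.107, 0.103 and 0.0973 with trametinib. The log2 change in density was -1.48 ± 0.19 (adjusted p = 9.27e-04). Already in DMSO NOP53 had the lowest density of the 55 factors, 0.285, where the quartiles of the factors ran from 1.16 to 1.99 around a median of 1.47 and the median over 10660 genes tested was 1.02.

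The density of FBL was 1.93, 1.86 and 1.99 in DMSO and 0.886, 0.842 and 0.937 with trametinib, with libraries of a group close together. The log2 change was -1.12 ± 0.18 (adjusted p = 0.00319). The calls of FBL and NOP53 held without each of the 12 libraries in turn, with adjusted p of at most 0.0205 for FBL and 0.00575 for NOP53.

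NOB1 had the next lowest change in density and lay at the threshold. Its input was 1240.0, 951 and 1179 in DMSO and 1306, 1383 and 1392 with trametinib, its footprints 1129.6, 959 and 1032 in DMSO and 760.2, 790.5 and 682 with trametinib, and its density 0.911, 1.01 and 0.876 and 0.582, 0.571 and 0.49. Trametinib lay above DMSO in input and below it in footprints and density. The footprints fell (-0.48 ± 0.11, adjusted p = 0.0066), whereas input (0.28 ± 0.15, adjusted p = 0.171) and density (-0.76 ± 0.18, adjusted p = 0.058) did not pass. With the input and footprint library of the same treatment and number as a replicate block NOB1 density passed (adjusted p = 0.0142), as it did with DESeq2 (adjusted p = 0.00214) and without the first DMSO input library (adjusted p = 0.0382). NPM1 followed with a density of 1.19, 1.01 and 1.82 in DMSO and 0.923, 0.775 and 0.95 with trametinib (-0.59 ± 0.22, adjusted p = 0.444). NPM1 is the only one of the 57 factors that the table marks as a 5′TOP mRNA. NOB1 lies outside the rule for named genes and was picked after its values were seen.

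**Figure D4:**
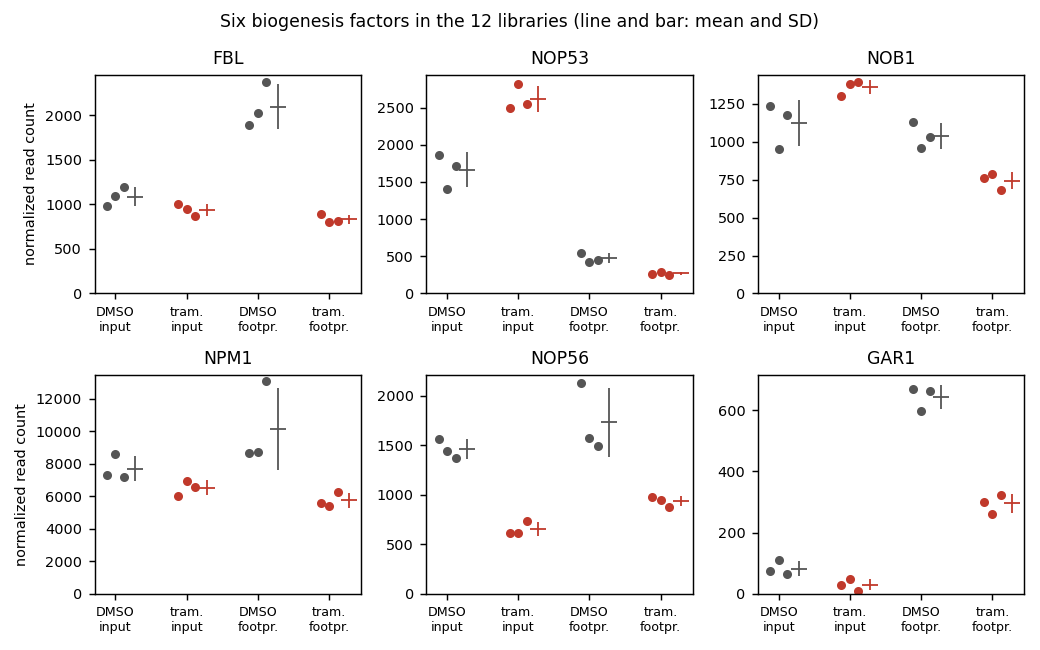
Normalized read counts (vertical axis, from 0) of FBL, NOP53, NOB1, NPM1, NOP56 and GAR1 in the 12 libraries; each point is a library, black for DMSO and red for trametinib, with the mean and SD of 3 beside it. NOP56 and GAR1 drop in input and footprints alike, FBL in footprints with overlapping input, and NOP53 rises in input while its footprints drop.

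5′TOP mRNAs start with a cytidine followed by a run of pyrimidines, and their translation is known to depend on mTOR signalling. The first bases of the factors were read from RefSeq promoter sequences (GRCh38.p14, 250 bases before and 50 after each annotated start), which matched 48 of the 57 factors, 46 of them tested. 8 of the 48 (16.7%) began with a C followed by at least 4 more pyrimidines (C or T), searched on the transcribed strand at the annotated start. The same start was found in 5.77% of the 8717 tested genes with a promoter sequence, in 4.04% of all 27305, and in 43 of 63 cytosolic ribosomal protein genes (68.3%). The 8 factors are shown with 30 bases on each side of the start, 5′ to 3′, because they include the 4 factors of lowest density change, and the pyrimidine run from the start onwards is in capitals.
NOP53 (chr19:47745516-47745575, plus strand): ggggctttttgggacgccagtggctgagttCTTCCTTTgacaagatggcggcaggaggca
FBL (chr19:39846350-39846409, minus strand): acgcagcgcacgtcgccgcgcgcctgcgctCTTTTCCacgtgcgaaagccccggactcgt
NOB1 (chr16:69754897-69754956, minus strand): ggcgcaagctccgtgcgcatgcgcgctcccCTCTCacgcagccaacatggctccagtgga
NPM1 (chr5:171387819-171387878, plus strand): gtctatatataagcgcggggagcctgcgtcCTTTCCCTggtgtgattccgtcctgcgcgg
DDX21 (chr10:68956140-68956199, plus strand): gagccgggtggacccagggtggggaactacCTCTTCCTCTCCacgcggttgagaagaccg
UTP14A (chrX:129906134-129906193, plus strand): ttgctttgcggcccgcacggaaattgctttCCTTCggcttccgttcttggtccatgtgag
DDX54 (chr12:113185449-113185508, minus strand): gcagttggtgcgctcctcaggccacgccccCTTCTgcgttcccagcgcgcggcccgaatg
EBNA1BP2 (chr1:43172541-43172600, minus strand): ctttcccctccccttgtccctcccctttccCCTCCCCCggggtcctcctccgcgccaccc
The scaffold partner of FBL and the other abundant nucleolar protein, both without such a start, are printed in the same window for comparison, with nothing in capitals.
NOP56 (chr20:2652602-2652661, plus strand): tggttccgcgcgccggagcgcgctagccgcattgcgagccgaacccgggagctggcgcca
NCL (chr2:231464455-231464514, minus strand): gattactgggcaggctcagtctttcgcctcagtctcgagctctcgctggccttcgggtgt

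In the order printed, the log2 change in density of the 8 factors was -1.48 for NOP53, -1.12 for FBL, -0.76 for NOB1, -0.59 for NPM1, -0.48 for DDX21, -0.43 for UTP14A, -0.39 for DDX54 and -0.0068 for EBNA1BP2. The 5 lowest of the 46 factors with a sequence were all among them, but EBNA1BP2, with a run of 8 pyrimidines, showed a density change near 0. The fifth place was narrow, DDX21 at -0.48 ± 0.25 (SE) and NIP7, without such a start, at -0.47 ± 0.22, and NIP7 lay below DDX21 with limma-trend (-0.47 and -0.45) and with the lysate as a replicate block (-0.47 and -0.46). The median over the 8 was -0.53 and over the 38 without such a start -0.022, where the lowest value was -0.47 (NIP7). Over all genes tested the medians were -0.15 for 503 genes with the start and 0.0087 for 8214 without it. The 503 included 43 cytosolic ribosomal protein genes and the 8 factors. The 79 ribosomal protein genes tested had a median density change of -1.08. In footprints the 2 groups of factors had medians of -0.83 and -0.76, and in input of -0.21 and -0.65. This start was looked up after the densities were known, and the groups were not tested against each other. The annotated start need not be the one used in HCT116.

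**Figure D5:**
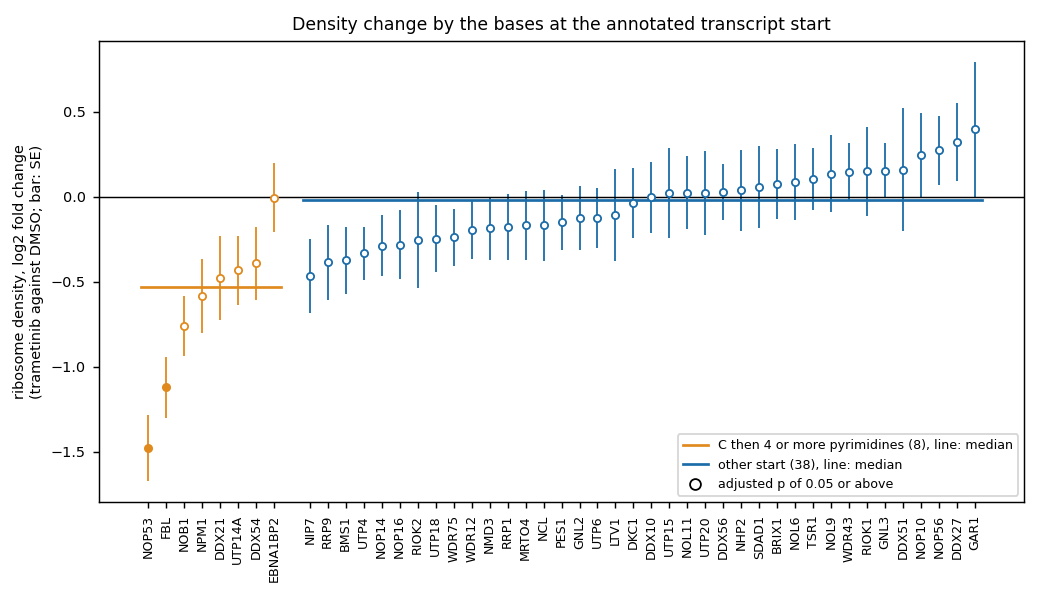
Log2 change in ribosome density (trametinib against DMSO, vertical axis; bars are SE) of the 46 tested factors with a promoter sequence, split by whether the annotated transcript starts with C and at least 4 pyrimidines (orange, 8) or not (blue, 38); lines are medians and open symbols mark an adjusted p of 0.05 or above. NOP53, FBL, NOB1 and NPM1 lie below every factor of the other group, DDX21 is level with NIP7 within their SE, and the medians are -0.53 and -0.022.

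A second feature shared by many of the promoters was the letters CACGTG, the canonical E-box to which MYC and related factors are known to bind. The letters read the same on both strands. They occurred in 18 of the 48 promoters (37.5%), in 10.5% of those of tested genes, in 7.43% of all promoters of the same length and in 3 of 63 of the ribosomal protein genes (4.76%). Shown are the 4 factors with the lowest change in input among those holding the letters within 30 bases of the start, with CACGTG in capitals.
MRTO4 (chr1:19251775-19251834, plus strand): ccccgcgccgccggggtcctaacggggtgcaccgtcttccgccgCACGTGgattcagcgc
UTP4 (chr16:69132619-69132678, plus strand): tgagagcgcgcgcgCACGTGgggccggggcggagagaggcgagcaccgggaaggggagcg
NOL6 (chr9:33473895-33473954, minus strand): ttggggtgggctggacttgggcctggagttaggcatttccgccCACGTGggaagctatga
UTP20 (chr12:101280075-101280134, plus strand): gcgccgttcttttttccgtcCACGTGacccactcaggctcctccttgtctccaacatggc
Their input changes were -1.13 for MRTO4, -1.04 for UTP4, -0.996 for NOL6 and -0.90 for UTP20. The 17 tested holders had a median change of -0.62 in input and -0.84 in footprints, and the 29 tested factors without the letters -0.59 and -0.79, a difference that was not tested. GAR1, RIOK1 and UTP15, the factors with the lowest input estimates, had no match in this window. MYC mRNA itself was at 2877, 2008 and 2529 normalized counts of input in DMSO and 1446, 1394 and 1571 with trametinib, a log2 change of -0.75 ± 0.16 (SE, adjusted p = 0.00222). Its part in the change of the factors was not tested. This motif too was searched with the values known.

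Other proteins of the pathway that passed the test in input or footprints were all lower. Of 87 further biogenesis factors in the list, 86 were in the table and 85 passed the filter. This list was also chosen with earlier results of these data known. In input 43 of the 85 fell and none rose (median -0.53), and in footprints 65 fell and none rose (median -0.65). Of all genes tested 16.9% fell in input and 25.6% in footprints. None was called for density (median -0.083) by edgeR, DESeq2 or limma-trend, with 5.0 lower and 2.0 higher at an unadjusted p under 0.05. No factor of this list was higher in input or footprints at an unadjusted p under 0.05, nor was any called higher by DESeq2 or limma-trend. The factors of the large subunit had a median of -0.72 in footprints, those of the small subunit -0.58 and those of snoRNP assembly -0.56.

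The products that these factors assemble showed another pattern. Of 79 cytosolic ribosomal proteins tested, 1 fell and 9 rose in input (median 0.20), 77 fell in footprints (median -0.95) and 65 fell in density (median -1.08). Of all genes tested 16.9% fell and 15.4% rose in input, 25.6% fell in footprints and 1.04% fell in density. The biogenesis factors, with 36 lower in input and 2 in density, had a median of -0.82 in footprints. FBL and NOP53, with density changes of -1.12 and -1.48, lay within the range of the ribosomal proteins (-1.59 to -0.33).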

How the data were processed

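Per the study's methods, rRNA-depleted input RNA and monosome footprints of 25–35 nt were sequenced, reads were filtered against rRNA and tRNA with Bowtie 1.2.2 and mapped to Gencode V38 transcripts (hg38), and the authors deposited raw counts per gene symbol of reads on coding sequences of 1 gene. The deposited table also holds 12 normalized per-library columns, log2 fold changes and adjusted p-values from DESeq2 1.46.0 and a stemness mark, none of which was used; its mark of 5′TOP mRNAs was.

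The 57 members and the other lists were chosen with earlier results of these data known. Counts were tested with edgeR 4.0.16 (R 4.3.3, quasi-likelihood, robust) with median-of-ratios size factors over the 12 libraries on the 10663 genes with 10 or more counts in 3 or more input libraries. Input and footprints were fitted on 6 libraries each, and density as the interaction of assay and treatment over 12. These main fits had no term for the lysate or the replicate number. An adjusted p (Benjamini-Hochberg) under 0.05 was a call; SE is the log2 fold change over the root of F. The script was tested on simulated data. Named genes were the C/D and H/ACA cores, PeBoW, NPM1, NCL and NOLC1, factors called for density, and the 5 largest called falls and rises in input and footprints. Alternatives were TMM, library totals, 2 other filters, DESeq2 1.42.0, limma-trend 3.58.1, replicate blocks and each library left out. Between treatments, deviations from the group mean in libraries of equal number correlated weakly over 7691 genes. The r was 0.116, 0.132 and 0.294 in footprints and 0.0678, 0.0474 and 0.333 in input. Whether the numbers pair the treatments was not tested. Per the methods both assays used the same lysates, and libraries of equal treatment and number were taken as 1 lysate (r = 0.815, 0.18 and 0.342 in DMSO and 0.142, 0.0819 and -0.121 with trametinib). No 2 libraries were identical. Gene lengths and overlaps came from Gencode v44.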

Additional observations from a re-analysis of the deposited data

How the results depend on the processing

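Direction and calls of the group held under most settings. Library totals moved the median footprint change of the factors to -0.64, where the median of all genes went from -0.014 to 0.16, and left 44 calls. The counts of called factors stayed within 1.5 times the original under every setting. Without single libraries, factors lower in input numbered 28 to 39, in footprints 44 to 51 and in density 2 to 3. With the replicate number as a block, 42 factors were lower in input, 50 in footprints and 2 in density; with the lysate (equal treatment and number) as a replicate block, 3 were lower in density (NOB1 added). The block by number added the input calls of NOP10, PES1, DDX52, GNL2, GNL3 and NMD3 and changed no other call of the factors. Library totals shifted the density of all genes by 0.18, and uncalled estimates closer to 0 than that turned positive by construction: DKC1 0.13, PES1 0.023, NCL 0.0071, NOLC1 0.035, MRTO4 0.0069, UTP6 0.051, GNL2 0.047, LTV1 0.068, DDX10 0.17 and EBNA1BP2 0.17. Uncalled estimates also changed sign with TMM, DKC1 standing at 0.0035, and with limma-trend, UTP15 at -0.024. Without single libraries DKC1 ranged from -0.15 to 0.094, NHP2 from -0.16 to 0.16 and UTP15 from -0.19 to 0.23. For these the cause was not tested. Input depth, lower than that of footprints, limits the density of factors such as GAR1.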
